A study of Mus musculus with 54 samples.

Results

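Polyamines are small positively charged molecules that bind nucleic acids and that growing cells need for protein synthesis and division. In their synthesis, ornithine decarboxylase (Odc1) makes putrescine from ornithine, S-adenosylmethionine decarboxylase (Amd1) makes the aminopropyl donor, and spermidine synthase (Srm) and spermine synthase (Sms) use that donor to make spermidine and then spermine. Antizymes (Oaz1 and Oaz2) bind ornithine decarboxylase and deliver it to the proteasome, and the antizyme inhibitor (Azin1), a relative of ornithine decarboxylase without its activity, binds antizymes in its place. Spermidine/spermine N1-acetyltransferase (Sat1) acetylates polyamines, which marks them for export or oxidation. T cells that leave the resting state raise their polyamine content, and ornithine decarboxylase is a known early target of growth signals.

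The RNA levels of these 8 genes, named as a list, were followed in naive CD4+ T cells of C57BL/6 mice by RNA sequencing. All 8 had an entry among the 55385 genes of both count tables, and all 8 were among the genes with at least 1 read that were tested, 32290 in the CD5/CD6 experiment and 27780 in the LAT experiment. In the CD5/CD6 experiment, cells of WT mice, of mice without CD5 (Cd5-/-), without CD6 (Cd6-/-) or without both (Cd5-/-Cd6-/-, a single deletion over the neighboring genes) were enriched with magnetic beads from lymph nodes and spleens that had been pooled. In the LAT experiment, the cells came from Lat fl-dtr maT-Cre mice, in which Cre acts in T cells, and were sorted from pooled lymph nodes and spleens as cells that bore the human diphtheria toxin receptor (WT) or did not (Lat-/-), so both groups came from mice with the same floxed reporter allele and Cre. The mice were 8 to 10 weeks old. Cells were left unstimulated (0 h) or were taken after 4 h or 20 h on plate-bound anti-CD3 (3 µg/ml) with soluble anti-CD28 (1 µg/ml). There were 3 libraries for each genotype and time, 36 libraries in the CD5/CD6 experiment and 18 in the LAT experiment. No unstimulated cells of 4 h or 20 h were sequenced. In a change against 0 h, stimulation therefore cannot be told apart from time in culture. CD5 and CD6 are surface receptors of T cells, and LAT is the adaptor that links the T cell receptor to most of its downstream signals.

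Libraries held from 20554354 to 45222554 counts in the CD5/CD6 experiment and from 17784644 to 28501095 in the LAT experiment. Levels are given as CPM, counts scaled to the library total and its TMM factor, 3 counts corresponded to at most 0.169 CPM, and this floor covers counting error only. The markers Cd3d, Cd3e, Cd3g and Cd4 summed to between 1656 and 4715 CPM in every library. Lat was at 92.2 to 351 CPM in WT cells and at 5.69 to 19.1 CPM in Lat-/- cells of the LAT experiment. These WT cells had 214 to 292 CPM at 0 h, 262 to 351 CPM at 4 h and 92.2 to 105 CPM at 20 h. WT cells of the CD5/CD6 experiment had more, 649 to 792, 1077 to 1345 and 459 to 631 CPM. The part of this in the responses of the WT cells was not tested. The third Lat-/- library had the most Lat of its group at each time. It was at 19.1 CPM against 15.2 and 11.6 CPM at 0 h, 11.3 against 6.79 and 5.69 CPM at 4 h, and 17.2 against 11.7 and 9.91 CPM at 20 h. At 0 h, the second libraries labelled Cd5-/- and Cd6-/- went against their labels, with Cd5 at 719 CPM in the former and 172 CPM in the latter, and Cd6 at 329 and 1203 CPM. They were kept under their labels, and the calls that change without them are given below. Nothing in the sources used here says whether the 3 libraries of a group came from separate animals, so p-values measure only the spread between these libraries, and fewer cells of a type cannot be told apart from less RNA per cell.

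The upstream sequences of 4 members are shown because the genes they belong to rose together (Odc1, Sms and Amd1) or did not pass the test in WT cells (Oaz1). They were taken from RefSeq for build GRCm38.p6, read 5′ to 3′ along the strand of the gene up to the first base of the deposited gene model, with bases inside a deposited exon left out. Entries were found for 6 of the 8 members; Srm and Azin1 are named only. For Sms the table held a second stretch with another start (chrX:157491373-157491618), which had 4 GC boxes and neither an E-box nor a CCAAT box and is not printed. Capitals mark matches, on either strand, of the GC box GGGCGG, the CCAAT box CCAAT, the E-box CACGTG and the TATA box TATAA, 4 motifs chosen for this description.
Odc1, chr12:17544623-17544793, plus strand: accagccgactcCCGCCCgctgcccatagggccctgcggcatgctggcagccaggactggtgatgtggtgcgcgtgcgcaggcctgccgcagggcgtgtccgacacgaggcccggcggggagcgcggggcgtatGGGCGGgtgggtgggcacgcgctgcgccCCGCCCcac
Sms, chrX:157492288-157492537, minus strand: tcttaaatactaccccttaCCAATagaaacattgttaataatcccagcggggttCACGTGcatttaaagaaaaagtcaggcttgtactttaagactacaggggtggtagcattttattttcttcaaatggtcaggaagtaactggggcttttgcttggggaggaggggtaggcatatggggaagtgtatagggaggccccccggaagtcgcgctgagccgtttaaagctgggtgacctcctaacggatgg
Amd1, chr10:40302189-40302438, minus strand: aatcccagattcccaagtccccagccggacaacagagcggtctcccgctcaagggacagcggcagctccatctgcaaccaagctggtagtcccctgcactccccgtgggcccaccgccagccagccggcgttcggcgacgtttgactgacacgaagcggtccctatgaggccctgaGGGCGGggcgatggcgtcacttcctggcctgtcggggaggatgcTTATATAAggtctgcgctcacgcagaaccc
Oaz1, chr10:80826406-80826655, plus strand: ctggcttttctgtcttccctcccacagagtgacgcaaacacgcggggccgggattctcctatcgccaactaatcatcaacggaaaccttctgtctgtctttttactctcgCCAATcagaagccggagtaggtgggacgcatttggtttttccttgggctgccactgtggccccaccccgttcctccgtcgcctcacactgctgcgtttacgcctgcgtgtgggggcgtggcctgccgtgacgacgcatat
The Odc1 stretch held GC boxes and the Amd1 stretch a GC box and overlapping TATA boxes. The Sms stretch held 1 E-box and 1 CCAAT box, and that of Oaz1 a CCAAT box alone. Of 32851 promoters of the same table, 32.7% held the GC box, 33.8% the CCAAT box, 22.8% the TATA box and 6.02% the E-box, so these are letters that many promoters hold, and a missing match says only that the letters were not in the stretch read.

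The first question was how the pathway's RNAs moved when WT cells were stimulated. All 4 enzymes of synthesis and the antizyme inhibitor rose in both experiments, while the antizymes did not and Sat1 fell late. Of the 8 members, 5 were higher and 1 lower at 4 h in the CD5/CD6 experiment (edgeR's quasi-likelihood test, adjusted p below 0.05 after Benjamini-Hochberg adjustment over all genes tested), where 13.3% of all genes tested were higher and 15.2% lower. At 20 h 5 were higher and 1 lower, with 16.9% and 21.1% of all genes. In the LAT experiment 6 were higher and 0 lower at 4 h (14.2% and 14.8% of all genes), and 5 higher and 1 lower at 20 h (16.5% and 18.2%). The median log2 fold change of the 8 members was 1.52 at 4 h and 1.78 at 20 h in the CD5/CD6 experiment and 1.29 and 1.52 in the LAT experiment, against 0 in each case over all genes tested. Without genes of low counts the median over genes was -0.08 and -0.07, and -0.03 and -0.07. All genes tested include many with few reads, which seldom pass. Shares past the test among genes at the members' levels are not given here.

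**Figure D1:**
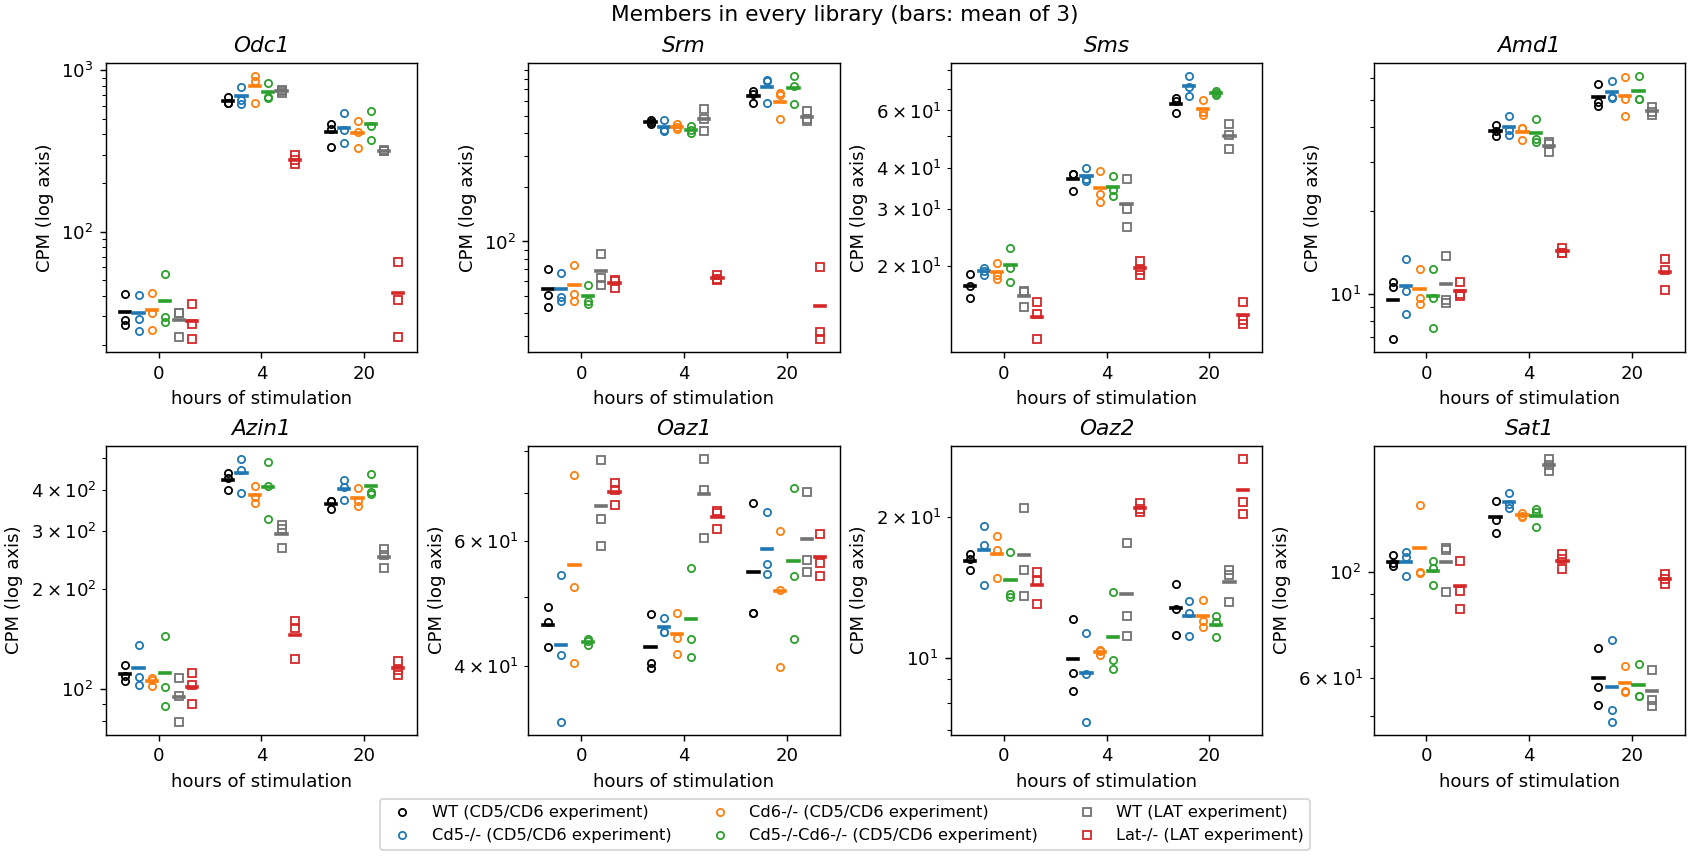
CPM of each of the 8 genes (log axis) in every library, by genotype and hour of stimulation, with the mean of the 3 libraries as a short bar. Odc1 and Srm lie between 22.2 and 85.4 CPM in all WT libraries at 0 h and between 409 and 759 CPM at 4 h, while Oaz1 stays between 39.8 and 78.1 CPM in the WT libraries of every time.

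Odc1 (chromosome 12, 17544794 to 17551505, plus strand, GRCm38), which encodes the first and usually limiting enzyme, had the largest change of the 8 at 4 h. In the CD5/CD6 experiment its WT levels were 41.0, 28.4 and 26.6 CPM at 0 h, 624, 686 and 628 CPM at 4 h, and 335, 435 and 465 CPM at 20 h. The libraries of the 3 times did not overlap. It rose 20.2-fold by 4 h (log2 fold change 4.34, SE 0.22, adjusted p = 4.07e-28 by edgeR) and fell by 0.65 on the log2 scale from 4 h to 20 h (SE 0.20, adjusted p = 0.00593), a fall that did not pass without the first 20 h library (log2 fold change -0.50, adjusted p = 0.0701). In the LAT experiment the WT values were 31.3, 22.2 and 31.4 CPM at 0 h, 723, 759 and 740 CPM at 4 h, and 316, 320 and 316 CPM at 20 h. The same order held there, with a rise of 26.1-fold by 4 h and a fall by 1.24 on the log2 scale from 4 h to 20 h (SE 0.25, adjusted p = 0.000341 by edgeR with its filter on low counts).

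Srm (chromosome 4, 148591503 to 148594993, plus strand), which makes spermidine from putrescine, was high early and stayed high. The CD5/CD6 experiment had WT levels of 50.5, 43.2 and 70.1 CPM at 0 h, 476, 452 and 461 CPM at 4 h, and 591, 686 and 661 CPM at 20 h, again without overlap. The rise was 8.47-fold at 4 h (log2 fold change 3.08, SE 0.18) and 11.8-fold at 20 h (3.56, SE 0.19). The further rise from 4 h to 20 h was 0.48 on the log2 scale (SE 0.17, adjusted p = 0.0198 by edgeR), and it missed the threshold without the second library of 4 h (adjusted p = 0.0516) or of 20 h (adjusted p = 0.0646). In the LAT experiment WT cells had 62.3, 85.4 and 57.0 CPM at 0 h, 544, 478 and 409 CPM at 4 h, and 467, 479 and 533 CPM at 20 h. There the groups of 4 h and 20 h overlapped (log2 fold change 0.03, SE 0.24, adjusted p = 0.933 by edgeR with its filter on low counts).

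Amd1 (chromosome 10, 40287458 to 40302188, minus strand), whose product supplies the aminopropyl donor, lay lower. In the CD5/CD6 experiment WT cells had 11.0, 6.90 and 10.6 CPM at 0 h, 40.6, 37.1 and 38.8 CPM at 4 h, and 47.7, 49.4 and 57.2 CPM at 20 h, a rise of 4.07-fold (SE of the log2 fold change 0.18) and then 5.39-fold. Sms (chromosome X, 157443855 to 157492287, minus strand), which turns spermidine into spermine, had 17.4, 18.9 and 15.9 CPM at 0 h, 38.4, 38.3 and 34.0 CPM at 4 h, and 58.8, 64.2 and 65.4 CPM at 20 h. It was the enzyme with the smallest rise, 2.12-fold at 4 h and 3.61-fold at 20 h, and it was still climbing from 4 h to 20 h in both experiments (log2 fold changes 0.77, SE 0.15, and 0.69, SE 0.18). The LAT experiment gave for WT cells a rise of Amd1 of 3.15-fold and then 4.20-fold, and of Sms of 1.92-fold and then 3.11-fold. Amd1 from 4 h to 20 h gave 0.41 and 0.42 on the log2 scale and did not pass in either experiment (adjusted p = 0.0671 and 0.0672 by edgeR). This miss depends on the processing: it passed with edgeR's filter on low counts in both (adjusted p = 0.0335 and 0.0238), and in the LAT experiment also in DESeq2 (0.00624) and with the compared groups alone (0.00101).

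Azin1 (chromosome 15, 38487427 to 38519266, minus strand), which protects ornithine decarboxylase from antizymes, moved with the enzymes. Its WT levels were 106, 109 and 118 CPM at 0 h, 450, 401 and 435 CPM at 4 h, and 350, 372 and 370 CPM at 20 h in the CD5/CD6 experiment. The rise was 3.86-fold at 4 h and 3.28-fold at 20 h there (log2 fold changes 1.95 and 1.71, SE 0.16 each), and 3.13-fold and 2.66-fold in the LAT experiment. The difference between 4 h and 20 h did not pass (log2 fold changes -0.24 and -0.23).

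The antizymes moved little or downward. Oaz1 (chromosome 10, 80826656 to 80829290, plus strand) was at 46.2, 42.6 and 48.4 CPM at 0 h, 39.8, 40.4 and 47.3 CPM at 4 h, and 47.5, 47.5 and 67.8 CPM at 20 h in WT cells (CD5/CD6 experiment). These groups overlapped, and the log2 fold changes against 0 h in both experiments lay between -0.15 and 0.24, with 95% intervals from -0.49 to 0.62. Oaz2 (chromosome 9, 65668001 to 65690300, plus strand) had 16.2, 15.4 and 16.6 CPM at 0 h, 9.29, 8.49 and 12.1 CPM at 4 h, and 12.7, 11.2 and 14.4 CPM at 20 h. It fell by 0.69 on the log2 scale at 4 h (SE 0.19, adjusted p = 0.00246 by edgeR), and its 20 h value (-0.33) did not pass. Oaz2 in WT cells of the other experiment gave -0.28 at 4 h (adjusted p = 0.341 by edgeR), which passed without the third 4 h library (-0.54, adjusted p = 0.0336), and -0.19 at 20 h. Antizyme protein is set largely by a translational frameshift that polyamines induce, which RNA counts do not measure.

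Sat1 (chromosome X, 155213132 to 155216449, minus strand), the acetyltransferase, fell late in both experiments, after a rise at 4 h that passed in the LAT experiment. WT cells in the LAT experiment had 90.9, 111 and 112 CPM at 0 h, 167, 163 and 172 CPM at 4 h, and 52.5, 54.1 and 62.4 CPM at 20 h, with no overlap between times. It rose by 0.68 on the log2 scale at 4 h (SE 0.15) and was 1.86-fold lower than at 0 h by 20 h. In the CD5/CD6 experiment WT cells had 103, 108 and 104 CPM at 0 h, 121, 128 and 141 CPM at 4 h, and 52.7, 57.7 and 69.5 CPM at 20 h. The 3 times did not overlap here either, but the value at 4 h (0.31, SE 0.15) had an adjusted p of 0.140 by edgeR. With the replicate number as a block it was 0.30 and passed (adjusted p = 0.0354). Same-numbered libraries of 0 h and 4 h varied together in this comparison (r from 0.208 to 0.457), which the main fit does not use. The level at 20 h was 1.75-fold lower than at 0 h (adjusted p = 6.42e-06 by edgeR).

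**Figure D2:**
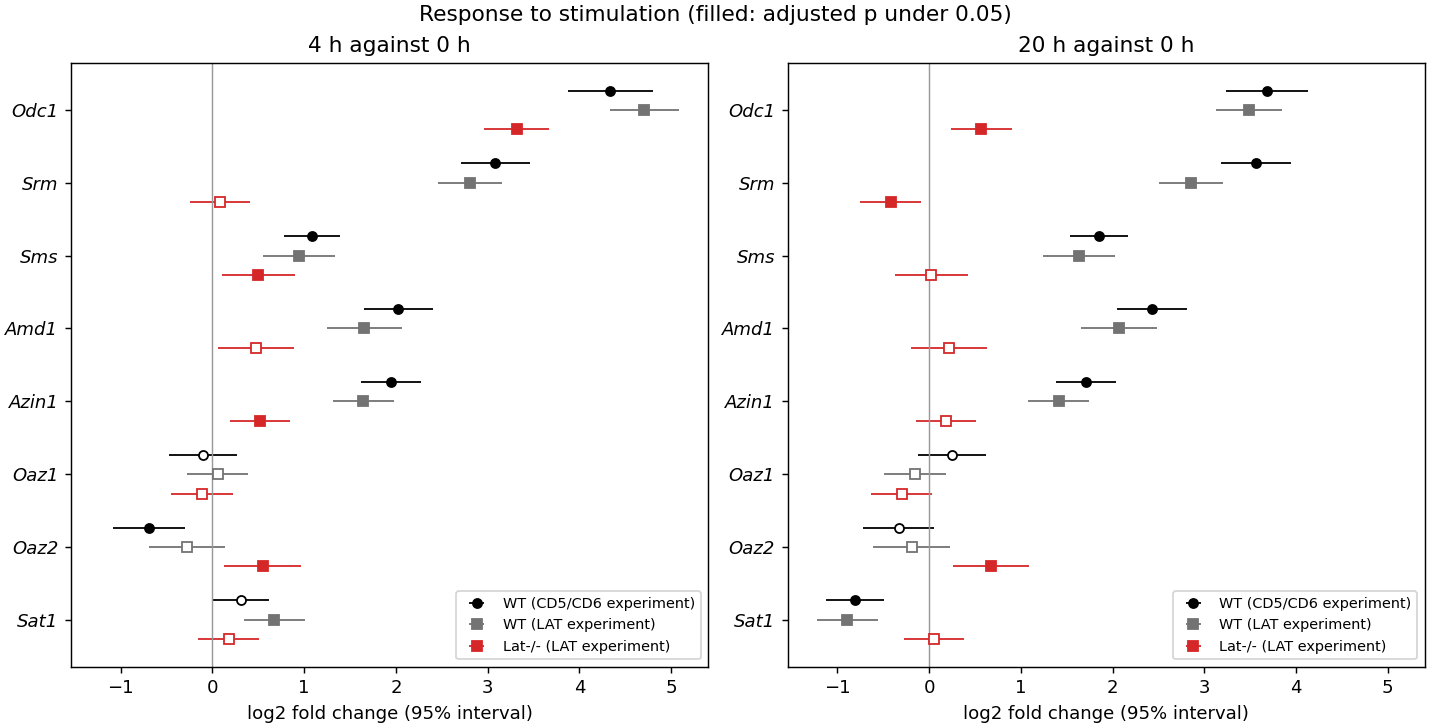
Log2 fold change of the 8 genes at 4 h and 20 h against 0 h in WT cells of both experiments and in Lat-/- cells, with 95% intervals as bars (for Odc1 and Srm in the LAT experiment these bars are too short) and filled points where the adjusted p is below 0.05. In WT cells of both experiments the points of Odc1, Srm, Sms, Amd1 and Azin1 lie at or above 0.94 at both times. In Lat-/- cells at 20 h the same 5 genes lie between -0.42 and 0.57, and Oaz2 lies at 0.67.

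Per kilobase of gene model, Sat1 and Srm led the 8 genes in unstimulated WT cells (CD5/CD6 experiment: 37.9 ± 1.0 and 34.2 ± 8.7 CPM per kb, SD, n = 3), a pair that did not differ beyond its spread. Oaz1 and Azin1 followed with 17.9 ± 1.1 and 17.7 ± 1.1 CPM per kb, again within their spread, then Odc1 with 9.40 ± 2.3, Oaz2 with 5.37 ± 0.21, and Sms and Amd1 with 2.89 ± 0.25 and 2.69 ± 0.65. At 4 h Srm (289 ± 7.6 CPM per kb) and Odc1 (190 ± 10) were far above the rest, of which Azin1 was highest (68.5 ± 4.1). At 20 h Srm reached 404 ± 31 CPM per kb and Odc1 121 ± 20, while Oaz2 was lowest of the 8 with 4.26 ± 0.54. Srm stood at the percentile 87.9 of genes by level per kilobase at 0 h and at 99.3 at 20 h, and Odc1 went from 58.3 at 0 h to 98.1 at 4 h. The order depends on the length used, and reads that match several places may bear on it. In the longest coding transcript, 87.6% of the 50-base windows of Amd1 also occur elsewhere among the transcripts, mostly in Amd2. The share was 52.2% for Oaz1, 42.2% for Odc1, 28.7% for Sms, 12.0% for Oaz2, 7.28% for Sat1, 6.43% for Azin1 and 2.41% for Srm. How the counting treated such reads is not given in the sources used here. Per kilobase of this transcript's windows found nowhere else the order changed. The transcript is also shorter than the gene model: 1162 against 2774 bases for Sat1, 1071 against 2558 for Oaz1 and 1338 against 1599 for Srm. The parts of this length and of the shared windows in the change of order were not tested. At 0 h Sat1 (102 CPM per kb) and Oaz1 (93.6) were then above Srm (43.4), with Odc1, Azin1 and Amd1 at 25.6, 24.6 and 24.4, and at 4 h Odc1 was above Srm (518 and 368) and Amd1 was at 99.5.

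The second question was whether the response depends on CD5 or CD6. The same 5 genes rose in Cd5-/-, Cd6-/- and Cd5-/-Cd6-/- cells at both times. Odc1 rose at 4 h by between 4.29 and 4.62 on the log2 scale in the 3 knockouts and Srm by between 2.93 and 3.07, and at 20 h by between 3.63 and 3.82, and 3.39 and 3.85. At 4 h, 6 members were higher and 1 lower in Cd5-/- cells, 5 and 1 in Cd6-/- cells, and 5 and 0 in Cd5-/-Cd6-/- cells, where 13.2%, 12.5% and 12.6% of all genes were higher and 15.2%, 14.7% and 13.7% lower. At 20 h the counts were 6 and 2, 5 and 1, and 5 and 1, with 16.8%, 16% and 16.7% of all genes higher and 21.3%, 20.8% and 21.6% lower. From 4 h to 20 h, 2 members were higher and 2 lower in WT, Cd5-/- and Cd6-/- cells (13.8%, 13.9% and 13.7% of all genes higher, and 16.7%, 16.9% and 16.9% lower), while in Cd5-/-Cd6-/- cells 3 were higher and 2 lower (13.4% and 17.8%). In all 4 genotypes Srm and Sms rose and Odc1 and Sat1 fell between these times. As in WT cells, some of these calls rested on 1 library: that of Odc1 in Cd5-/- cells (adjusted p = 0.00684 by edgeR) was lost without the first 20 h library (0.0612), and that of Srm in Cd6-/- cells (0.0252) without the second or the third 20 h library (0.0749 and 0.125). In Cd5-/-Cd6-/- cells Amd1 also rose from 4 h to 20 h (0.51, adjusted p = 0.0166 by edgeR). This call was lost without library 1 or 2 of 4 h (0.0528 and 0.0604) or library 3 of 20 h (0.102). The fall of Oaz2 in Cd5-/- cells at 20 h against 0 h (-0.47, adjusted p = 0.0428 by edgeR) was lost without library 1 or 3 of 0 h (0.133 and 0.256). It was also lost without library 1, 2 or 3 of 20 h (0.0822, 0.207 and 0.0743). The responses of different genotypes share no libraries.

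Some smaller calls changed without the libraries that went against their labels, or with the replicate number as a block. Without the second 0 h libraries labelled Cd5-/- and Cd6-/-, Sat1 in Cd5-/- cells at 4 h went from an adjusted p of 0.0291 to 0.120 by edgeR, and Oaz1 in Cd5-/- cells at 20 h from 0.0414 to 0.357. Oaz2 in Cd6-/- cells at 20 h went the other way, from 0.0620 to 0.0441. Without them 6 members passed at 4 h and 7 at 20 h in each of Cd5-/- and Cd6-/- cells, and 0 of the 16 member differences from WT cells at 0 h had an unadjusted p below 0.05. The calls of Sat1, Oaz1 and Oaz2 just named changed under other settings too. Sat1 did not pass without TMM factors (adjusted p = 0.350 by edgeR). In DESeq2 Oaz1 did not pass (adjusted p = 0.0770) and Oaz2 passed (adjusted p = 0.00521). With the replicate number as a block, the count in Cd5-/- cells from 4 h to 20 h went from 4 to 7, with Amd1, Oaz1 and Oaz2 added, and that in Cd5-/-Cd6-/- cells at 4 h from 5 to 7, with Oaz2 lower and Sat1 higher. Same-numbered libraries varied together in both comparisons (r from 0.145 to 0.409, and from 0.249 to 0.467).

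Compared with WT cells at the same time, 0 of the 8 members passed in any of the 3 knockouts by edgeR, and 0 of 72 values had an unadjusted p below 0.05. DESeq2, edgeR with its filter on low counts and fits of the compared groups alone each gave 1 of 72 below 0.05 unadjusted and 0 past the adjusted threshold. Few genes passed in all: 0.0619%, 0.0867% and 0.0217% of those tested in Cd5-/- cells at 0, 4 and 20 h, 0%, 0.0031% and 0.0186% in Cd6-/- cells, and 0.0279%, 0.0434% and 0.0465% in Cd5-/-Cd6-/- cells. The 72 log2 differences ran from -0.15 (Azin1 in Cd6-/- cells at 4 h) to 0.31 (Odc1 in Cd6-/- cells at 4 h), and their 95% intervals from -0.52 to 0.71, or from 0.697-fold to 1.64-fold. Odc1 at 4 h shows the spread behind these values. It was at 617, 656 and 790 CPM in Cd5-/- cells, at 918, 863 and 625 CPM in Cd6-/- cells, and at 674, 680 and 831 CPM in Cd5-/-Cd6-/- cells, ranges that overlap each other and the WT range of 624 to 686 CPM. Changes within these intervals were not detectable with 3 libraries a group, so equal levels are not shown.

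The differences between the responses of knockout and WT cells, 48 values, lay between -0.36 (Oaz1 in Cd6-/- cells at 20 h) and 0.29, and 0 passed by edgeR, where at most 0.0031% of all genes did. Cd5-/-Cd6-/- cells were also set against Cd5-/- cells at 4 h and 20 h, where 0.861% and 0.0279% of all genes passed. The 16 member values lay between -0.14 and 0.26 and 0 passed.

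**Figure D3:**
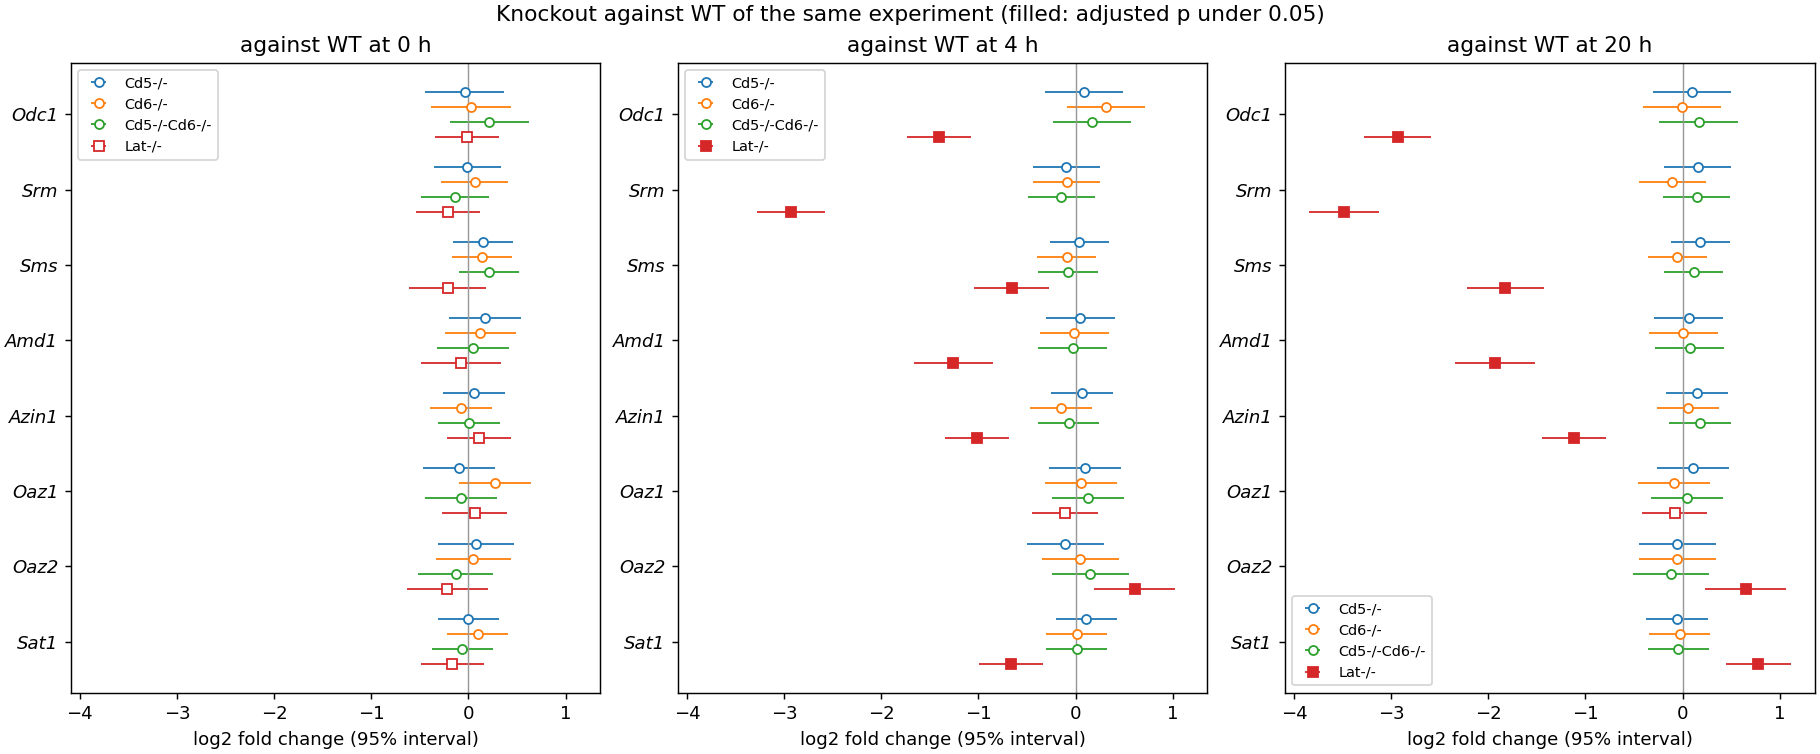
Log2 difference of each knockout against WT cells of its own experiment for the 8 genes at 0, 4 and 20 h, with 95% intervals as bars (too short for Odc1 and Srm of Lat-/- cells) and filled points past the test. The values of the Cd5-/-, Cd6-/- and Cd5-/-Cd6-/- cells lie between -0.15 and 0.31, and those of Lat-/- cells reach -3.49 for Srm at 20 h.

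The third question was how far the response needs LAT. At 0 h, 0 of 8 members differed between Lat-/- and WT cells by edgeR (1.59% of all genes passed), with log2 differences from -0.22 to 0.11. After 4 h, 6 members were lower and 1 higher in Lat-/- cells, where 12% of all genes were lower and 11.9% higher. After 20 h, 5 were lower and 2 higher, against 17.6% of all genes in each direction. The median log2 difference of the members was -0.84 at 4 h and -1.47 at 20 h, against 0 over all genes tested at both times, and 0.03 at both without genes of low counts. The fit of this experiment gave every gene the common spread at its abundance and no spread of its own. The own quasi-likelihood dispersions of Odc1 (2.82) and Srm (2.64) exceeded the values used (0.724 and 0.731), so the standard errors and p-values of this pair are too small there. The standard errors of this pair are therefore from the fit with a filter on low counts, and so are its p-values wherever the filter is named. The other 6 members had a spread of their own below the value used in this experiment. In the CD5/CD6 experiment the own values of Odc1 (1.47), Oaz1 (0.948), Srm (0.750) and Amd1 (0.682) were above those used (0.866, 0.744, 0.636 and 0.669). Standard errors and p-values there are from the main fit and may be too small, most of all for Odc1.

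Odc1 responded in Lat-/- cells, but not for long. It was at 26.8, 21.6 and 35.6 CPM at 0 h, 298, 279 and 262 CPM at 4 h, and 37.5, 22.3 and 64.8 CPM at 20 h. The 4 h libraries stood above all others of the genotype, and those of 0 h and 20 h overlapped. The rise at 4 h was 9.97-fold (log2 fold change 3.32), and the fall from 4 h to 20 h was 2.75 on the log2 scale. Against WT cells Odc1 was 2.65-fold lower at 4 h (log2 difference -1.41, SE 0.25, adjusted p = 0.000139 by edgeR with the filter) and 7.64-fold lower at 20 h (-2.93, SE 0.27, adjusted p = 1.75e-08), and no library of one genotype reached the range of the other at either time. The value at 20 h against 0 h within Lat-/- cells (0.57) passed in the fit without the filter (adjusted p = 0.00316), but not with the filter (0.122) or in DESeq2 (0.0723), and without the third library of 20 h it was 0.09 (adjusted p = 0.929 by edgeR).

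Srm had no rise past the test in Lat-/- cells. Its levels were 60.2, 61.4 and 55.1 CPM at 0 h, 60.8, 65.3 and 61.5 CPM at 4 h, and 31.2, 28.7 and 72.1 CPM at 20 h. The 4 h log2 fold change was 0.11 (SE 0.25, adjusted p = 0.782 by edgeR with the filter), and at 20 h only the third library was above the others of the genotype while the first and second were below them. Against WT cells Srm was 7.63-fold lower at 4 h (log2 difference -2.93, SE 0.26, adjusted p = 6.85e-08 by edgeR with the filter) and 11.2-fold lower at 20 h (adjusted p = 2.35e-09, SE 0.27). Leaving out 1 library at a time kept the 20 h difference between -4.04 and -3.22, and that of Odc1 between -3.41 and -2.60. The fall within Lat-/- cells from 0 h to 20 h (-0.42, adjusted p = 0.0499) did not pass with the filter (0.259) or in DESeq2 (0.277), and without the third 20 h library it was -0.98. The same holds for its fall from 4 h to 20 h (-0.51, adjusted p = 0.0111 by edgeR), which did not pass with the filter (0.152), in DESeq2 (0.156) or without any one of the first and second libraries of 4 h and 20 h (0.0604 to 0.589).

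Amd1 and Sms were lower too. Amd1 was at 14.1, 14.1 and 14.7 CPM at 4 h and 12.2, 10.4 and 13.4 CPM at 20 h in Lat-/- cells, against 34.9, 35.4 and 32.4 CPM and 47.2, 44.3 and 45.5 CPM in WT cells. It was 2.39-fold lower at 4 h and 3.81-fold lower at 20 h. Within Lat-/- cells Amd1 was at 9.82 to 11.1 CPM at 0 h, below all libraries of 4 h. Its log2 fold change at 4 h was 0.47 and did not pass (adjusted p = 0.0721 by edgeR). With the filter (0.49, adjusted p = 0.0172) and in DESeq2 (0.50, adjusted p = 0.0118) it passed. Sms had 20.7, 19.5 and 18.8 CPM at 4 h and 13.7, 13.3 and 15.6 CPM at 20 h, against 36.9, 30.0 and 26.4 CPM and 45.7, 54.6 and 50.4 CPM in WT cells. Neither gene's genotypes overlapped at these times. Sms was 1.58-fold lower at 4 h, a call that was lost without the first WT library of 4 h (adjusted p = 0.0657 by edgeR), and 3.55-fold lower at 20 h. Its small rise within Lat-/- cells at 4 h (0.50, adjusted p = 0.0396) was lost without any one of 5 of the 6 libraries compared.

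The regulators split. Azin1 had 161, 124 and 153 CPM at 4 h and 122, 110 and 114 CPM at 20 h in Lat-/- cells, against 304, 313 and 267 CPM and 254, 264 and 233 CPM in WT cells, and was lower by log2 differences of -1.01 and -1.12. It still rose at 4 h in Lat-/- cells, 1.43-fold, a call lost without the first library of 0 h (adjusted p = 0.0772 by edgeR) or of 4 h (0.0824). Oaz2 was higher in Lat-/- cells, with 20.5, 20.8 and 21.4 CPM at 4 h and 21.5, 26.6 and 20.3 CPM at 20 h against 11.1, 12.3 and 17.6 CPM and 13.1, 15.4 and 15.0 CPM in WT cells. The groups did not overlap, and the log2 differences were 0.61 (SE 0.19, adjusted p = 0.00821 by edgeR) and 0.65. The call at 4 h was lost without the first or the second WT library of 4 h (adjusted p = 0.0884 and 0.0517). Within Lat-/- cells Oaz2 was higher than at 0 h by 0.55 and 0.67 on the log2 scale. The former was lost without any one of the 6 libraries compared, and the latter without the second library of 20 h (adjusted p = 0.0881 by edgeR) or the third of 0 h (0.0623). Oaz1 gave -0.11 and -0.08 and did not pass, with 95% intervals within -0.45 and 0.25.

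Sat1 differed from WT cells in opposite directions at the 2 times. At 4 h Lat-/- cells had 102, 106 and 109 CPM against 167, 163 and 172 CPM in WT cells, and at 20 h they had 94.4, 96.6 and 99.2 CPM against 52.5, 54.1 and 62.4 CPM. It was thus 1.58-fold lower at 4 h and 1.72-fold higher at 20 h (SE of the log2 differences 0.15, adjusted p = 8.91e-05 and 1.55e-06 by edgeR). Within Lat-/- cells its level moved by 0.18 at 4 h and 0.05 at 20 h on the log2 scale, neither past the test.

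The difference of the responses, Lat-/- minus WT, was tested directly. At 4 h it was past the test and negative for Odc1, Srm, Amd1 and Azin1 and positive for Oaz2 (7.58% of all genes were negative and 7.42% positive past the test), and at 20 h negative for these 4 and for Sms and positive for Oaz2 and Sat1 (12.8% and 13.5%). The 4 h call of Oaz2 (0.82, adjusted p = 0.0190 by edgeR) was lost without the first or second WT library of 4 h, the second WT library of 0 h or the third Lat-/- library of 0 h (adjusted p from 0.0590 to 0.0885). Sat1 missed the threshold at 4 h (-0.50, adjusted p = 0.106 by edgeR). It passed with the filter (0.0214), in DESeq2 (0.0103) and without the second WT library of 0 h (0.0392). For Odc1 the difference was -1.39 at 4 h (SE 0.36, adjusted p = 0.00601 by edgeR with the filter) and -2.91 at 20 h (SE 0.36, adjusted p = 2.53e-06). For Srm it was -2.72 (SE 0.35, adjusted p = 1.90e-05) and -3.27 (SE 0.36, adjusted p = 5.54e-07). Within Lat-/- cells alone, 4 members were higher and 0 lower at 4 h (7.38% and 8.05% of all genes), 2 higher and 1 lower at 20 h (5.35% and 5.34%), and 0 higher and 2 lower from 4 h to 20 h (5.39% and 4.74%). These counts take Odc1 at 20 h and the falls of Srm as called without the filter. With it Amd1 was higher at 4 h too, 1 member passed at 20 h against 0 h, and from 4 h to 20 h Sms took the place of Srm. For WT cells the last of these counts was 1 and 2 (13.4% and 16.1%).

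Other cell types were part of some libraries. In the CD5/CD6 experiment the summed level of 5 B cell markers was 60.0 to 538 CPM at 0 h, 35.6 to 193 CPM at 4 h and 1.24 to 4.46 CPM at 20 h, that of 5 myeloid markers 45.0 to 349 CPM, 6.97 to 35.8 CPM and 1.79 to 3.61 CPM, and that of the hemoglobin genes Hba-a1 and Hbb-bs 208 to 3607 CPM, 169 to 3005 CPM and 1.66 to 58.3 CPM. These levels were lowest at 20 h, and their part in the responses there was not tested. In the LAT experiment the same sums were at most 4.73, 6.20 and 2.24 CPM, with up to 3 of the 5 B cell markers at 0 in a library, and Odc1 and Srm rose 26.1-fold and 6.99-fold in its WT cells. The summed level of 4 gamma delta T cell markers moved with genotype. At 4 h it was 20.7 to 22.5 CPM in WT cells, 56.9 to 62.0 in Cd5-/- cells, 61.8 to 86.2 in Cd5-/-Cd6-/- cells and 16.2 to 30.1 in Cd6-/- cells, and the medians of the 3 libraries at 20 h were 5.14, 13.3, 14.3 and 5.25 CPM. In Lat-/- cells it was 14.4 to 16.4 CPM at 0 h, 6.50 to 10.3 at 4 h and 8.14 to 10.7 at 20 h, against 31.1 to 44.7, 15.6 to 22.4 and 5.86 to 6.71 CPM in WT cells of that experiment. The part of these markers in the genotype comparisons was not tested.

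The pathway around the 8 genes was followed with a list of 33 other genes in 6 roles. In WT cells 14 were higher and 7 lower at 4 h, and 18 and 6 at 20 h, in the CD5/CD6 experiment, where all genes gave 13.3% and 15.2%, and 16.9% and 21.1%. In the LAT experiment, where 30 had reads, the counts were 14 and 5, and 17 and 2 (all genes: 14.2% and 14.8%, and 16.5% and 18.2%). The 4 genes of hypusine, an amino acid made from spermidine on the translation factor eIF5A, were higher at both times in both experiments. Eif5a itself rose from 407 ± 79.7 CPM (SD, n = 3) at 0 h to 3311 ± 572 CPM at 20 h in the CD5/CD6 experiment (log2 fold change 3.03, SE 0.18) and by 2.60 (SE 0.15) in the LAT experiment. All 6 genes that recover methionine from methylthioadenosine, the by-product of Srm and Sms, were higher at 20 h in the CD5/CD6 experiment and 5 of 6 in the LAT experiment, among them Mtap, which opens that route (1.98 and 1.55). Of precursor supply, the arginine transporter gene Slc7a1 rose from 127 ± 7.33 to 1222 ± 173 CPM by 4 h in the CD5/CD6 experiment (3.26, SE 0.18) and by 2.91 in the LAT experiment, and Mat2a, for the enzyme that makes S-adenosylmethionine, by 2.45 and 2.67. Smox, which encodes spermine oxidase, rose at 4 h (2.04 and 2.72) and was at -0.66 and -0.04 at 20 h, of which the former passed.

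**Figure D4:**
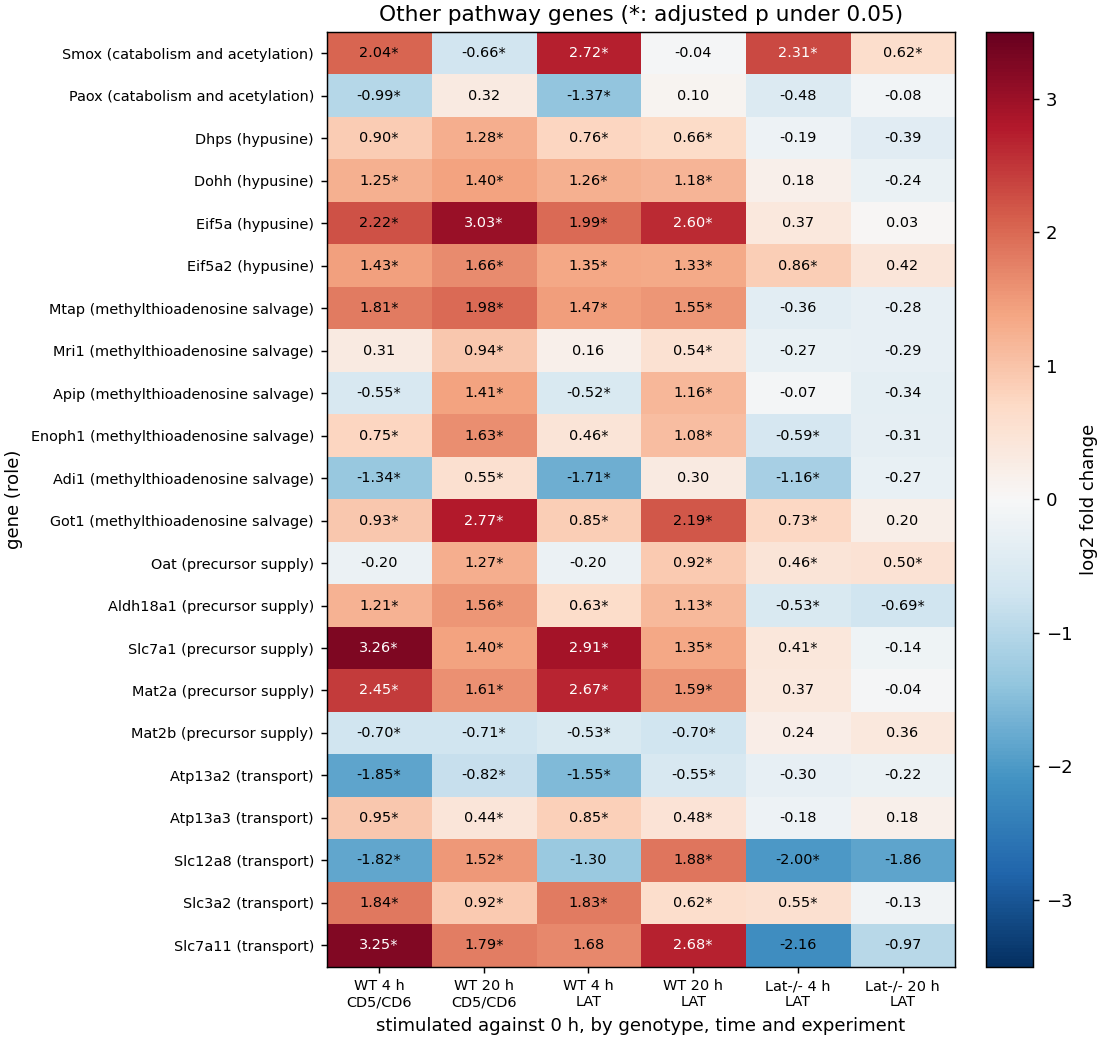
Log2 fold changes against 0 h (color and number, with a star past the test) of the 22 other pathway genes that passed in WT cells of both experiments at 4 h or 20 h, grouped by role, in WT and Lat-/- cells. The 4 hypusine genes lie above 0 in WT cells at both times, and Eif5a goes from 2.60 in WT cells to 0.03 in Lat-/- cells of the LAT experiment at 20 h.

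In Lat-/- cells 6 of the list were higher and 4 lower at 4 h, and 2 and 1 at 20 h, where all genes gave 7.38% and 8.05%, and 5.35% and 5.34%. Against WT cells 0 of 30 passed at 0 h by edgeR (1.59% of all genes), 12 were lower and 4 higher at 4 h (12% and 11.9%), and 14 lower and 1 higher at 20 h (17.6% each). At 20 h all 6 genes of methylthioadenosine salvage were lower, from -0.49 (Adi1) to -1.77 (Got1), and 3 of 4 hypusine genes, led by Eif5a with -2.79 (SE 0.15). Eif5a was at 391 ± 152 CPM (SD, n = 3) in Lat-/- cells and 2702 ± 175 CPM in WT cells then. Slc7a1 was lower at 4 h (-2.33) and 20 h (-1.31). Smox rose in Lat-/- cells at 4 h by 2.31, and was lower than in WT cells by a log2 difference of -0.92. The difference of the 4 h responses of Smox, Lat-/- minus WT, did not pass by edgeR. Mat2b, a regulatory subunit beside Mat2a, was higher at both times (0.91 and 1.20). In the comparisons of the CD5/CD6 knockouts with WT cells 0 of the 33 passed at any time by edgeR.

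Across libraries, Odc1 went with Azin1 (Pearson's r of log2 CPM 0.97 over the 36 libraries and 0.91 over the 18), and Srm with Amd1 (0.99 and 0.95). Sat1 and Srm gave -0.36 and -0.03. These values are descriptions, and they rest mostly on the 3 times, which all libraries share. Among 10086 genes with at least 50 counts on average, those most like Odc1, by the lower of the r values over the 36 and the 18 libraries, were Nfkb2 (0.98), Zfp52 (0.97) and Cdkn1a (0.97). Those most like Srm were Ebna1bp2, Tomm40 and Ifrd2 (0.99 each), and those most like Azin1 were Phf6 (0.99), Hnrnpll (0.98) and Naa50 (0.98). Oaz1 had no partner above 0.76, with 2310011J03Rik at 0.75. With Spearman's rho in place of r, 4 of the 24 genes named for the 8 members stayed, none of them for Odc1 or Azin1, so these names depend on the measure.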

How the data were processed

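Naive CD4+ T cells were profiled by RNA sequencing in 54 libraries. The authors made stranded mRNA libraries, sequenced single 50-base reads (bcl2fastq 2.17.1.14), aligned the reads with STAR (build GRCm38) and assigned them to genes with featureCounts, and the deposited values are raw read counts, not normalized. The annotation release and the use of strand and of multi-matching reads in counting are not given in the sources used here. Of 55385 identifiers, 55144 could be named.

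Groups came from the labels. Each table was fitted on its own in R 4.3.3 with edgeR 4.0.16 (quasi-likelihood test, TMM factors, 1 mean per genotype and time, genes with at least 1 read), with Benjamini-Hochberg adjustment over all genes, and a gene passed at an adjusted p below 0.05. Differences of responses were tested as contrasts of that fit. Intervals of 95% used the residual degrees of freedom (24 and 12). The prior degrees of freedom were 50.9 in the CD5/CD6 experiment and infinite in the LAT experiment, and 6.46 there with filterByExpr. For Odc1 and Srm in the LAT experiment, SE were taken from this filtered fit. Fits without 1 library kept the dispersion trend of all libraries. For likeness, 2 was the prior count of log2 CPM. The tests were tried on simulated counts, where the difference of responses recovered fewer of the smaller changes than the pairwise tests, so a gene that misses it is not shown to be unchanged.

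Same-numbered libraries were taken as pairs where all 3 correlations of their deviations from the group means exceeded 0.1, which held in 16 of 40 comparisons (0.103 to 0.626); the pairing comes from the replicate numbers in the labels. The genes named were the 8 members, the list of 33 others in 6 roles with values for those that passed in WT cells of both experiments, the targeted genes and the 3 genes most like a member. The members, lists and tests were chosen with earlier results of these data known. The level per unshared window was added after seeing the data. Alternatives were DESeq2 1.42.0, RLE factors, library totals, filterByExpr, the compared groups alone, the replicate block, a fold change over 2, and fits without single libraries.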

Additional observations from a re-analysis of the deposited data

Results flagged for a closer look

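These results were singled out because the responses of Lat-/- and WT cells differed by a test of the difference itself (edgeR, Lat-/- minus WT, log2 scale). At 4 h the differences were -1.39 for Odc1, -2.72 for Srm, -1.18 for Amd1 and -1.12 for Azin1, and 0.82 for Oaz2. At 20 h they were -2.92 for Odc1, -3.27 for Srm, -1.61 for Sms, -1.86 for Amd1 and -1.23 for Azin1, and 0.87 for Oaz2 and 0.94 for Sat1. No test for single deviating libraries was applied to the members, since each group held 3.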

How the results depend on the processing

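Of 4304 member values under alternatives, 4171 kept their side of the threshold (238 of them changed sign, passing in neither fit), 69 lost their call, 64 gained one and 0 reversed a call. Of 695 counts, 656 stayed within 1.5 times. Shares of all genes under the alternatives are not given, here or with the results, so these counts show only what a setting changed. A fold change over 2 as a second criterion left 1 member from 4 h to 20 h in WT, Cd5-/-, Cd6-/- and Cd5-/-Cd6-/- cells, 4 at 4 h and 5 at 20 h against 0 h in Cd5-/- cells, 1 at 4 h, 0 at 20 h and 1 from 4 h to 20 h in Lat-/- cells, and 4 at 4 h for Lat-/- against WT. Under it the list of 33 gave 12 at each of 4 h and 20 h for WT (LAT experiment), 3 and 0 in Lat-/- cells, and 9 for Lat-/- against WT at 4 h. Library totals without TMM factors shifted the median gene by -0.25 (4 h against 0 h, WT, CD5/CD6 experiment) to 0.21 (20 h against 4 h, WT, LAT experiment) on the log2 scale, and gave 7 members from 4 h to 20 h in WT cells of the former and 2 at 4 h in Lat-/- cells. In Lat-/- cells at 20 h, filterByExpr and DESeq2 each gave 1 member, and the compared groups alone gave 5 of the list. With the replicate block 7 members passed in Cd5-/- cells from 4 h to 20 h, and 1 gene of the list for Lat-/- against WT at 0 h. Beside the calls given with the results, the block changed those of Amd1 (20 h against 4 h in WT and Cd6-/- cells), Oaz2 (20 h in Cd6-/- cells) and Oaz1 (20 h in Cd5-/-Cd6-/- cells). These comparisons missed the rule for pairs, with a lowest r between 0.0318 and 0.0953 and a highest between 0.127 and 0.414. Leaving out 1 library gave 1 to 3 members at 4 h, 1 to 2 at 20 h and 1 to 2 from 4 h to 20 h in Lat-/- cells, 1 to 4 of the list there at 20 h, and 0 to 1 of the list for Lat-/- against WT at 0 h. The causes were not tested.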
